A study of Mus musculus with 2 samples.

Results

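Mir137, Mir138-1 and Mir138-2 are genes of microRNAs (miRNAs), short RNAs that lower the output of messenger RNAs which pair with their seed, the bases near the 5′ end. They are studied in neurons for their roles in dendrites and at synapses. They were taken by gene symbol, a rule that uses no measured value, though it was set with earlier results of these data known. They make up 3 of the 1973 miRNA genes in the deposited tables. The tables hold small RNA (under 30 bases) of midbrain from B6NCrl mouse embryos at 15.5 days of development. The single group has 2 libraries, each from a pool of male and female embryos, 78 for replicate 1 and 62 for replicate 2. No treatment, mutant or second age was measured, so the data answer how abundant these miRNAs were in midbrain and how closely the pools agreed.

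A miRNA gene is transcribed as part of a longer RNA that folds into a hairpin, from which a 5p and a 3p arm are cut. One arm usually guides the silencing complex, the 3p arm for miR-137 and the 5p arm for miR-138. In mouse, miR-137 is known to limit dendrite growth and the maturation of neurons, and Mib1 is among its described targets. In rat hippocampal neurons, miR-138 is known to lie near synapses and to restrain the growth of dendritic spines, through Lypla1.

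The sequences are shown because they decide which reads can be given to which gene. The mature arms from RefSeq (GRCm38.p6) follow, 5′ to 3′, with the seed (bases 2 to 8) in capitals. All 3 genes and all their arms had an entry.
miR-137-5p: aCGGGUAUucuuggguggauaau
miR-137-3p: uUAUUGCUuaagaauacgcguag
miR-138-5p: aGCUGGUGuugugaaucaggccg
miR-138-1-3p: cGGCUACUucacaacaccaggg
miR-138-2-3p: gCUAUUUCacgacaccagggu

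The Mir138 genes encode the same 5p arm, so they have 1 guide between them, with 1 seed. No other gene among the 1005 hairpins and 1738 mature entries of the RefSeq table carries that seed. No second gene carries either seed of Mir137. The 3p arms of the Mir138 genes differ in their ends and so in their seeds. Aligned over 20 bases they match at 18, and the substitutions from miR-138-1-3p to miR-138-2-3p are C7U and A13G, with positions counted from 1 at the 5′ end of miR-138-1-3p.

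The hairpins are printed with both mature arms in capitals, since the part of each hairpin that is its own lies outside the first capital run of the Mir138 genes.
Mir137: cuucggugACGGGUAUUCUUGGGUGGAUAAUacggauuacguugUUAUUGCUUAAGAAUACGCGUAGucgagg
Mir138-1: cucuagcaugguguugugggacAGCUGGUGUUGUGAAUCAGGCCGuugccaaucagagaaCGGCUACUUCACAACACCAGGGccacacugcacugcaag
Mir138-2: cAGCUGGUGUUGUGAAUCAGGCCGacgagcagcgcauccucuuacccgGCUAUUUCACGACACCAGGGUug

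The longest stretch common to both Mir138 hairpins was 24 bases, the 5p arm and the base before it. Of the 22-base windows, about the length of a mature miRNA, 3 of 78 in the Mir138-1 hairpin and 3 of 50 in the Mir138-2 hairpin also occurred in the other copy and in no hairpin besides. None of the 52 windows of the Mir137 hairpin occurred in another hairpin. A read that lies wholly in the common stretch therefore matches both Mir138 genes. The deposited counts have the layout of a counter that sets aside any read with more than 1 mapping place instead of assigning it. The counter is not named, so this is read from the layout alone. If it holds, the Mir138 counts below describe reads that could be placed in 1 copy, and the level of miR-138-5p itself cannot be read from them. Which arm those counts come from was not tested. Mir137 has no such limit among the 1005 RefSeq hairpins. Other annotated hairpins and the genome sequence were not searched.

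**Figure D1:**
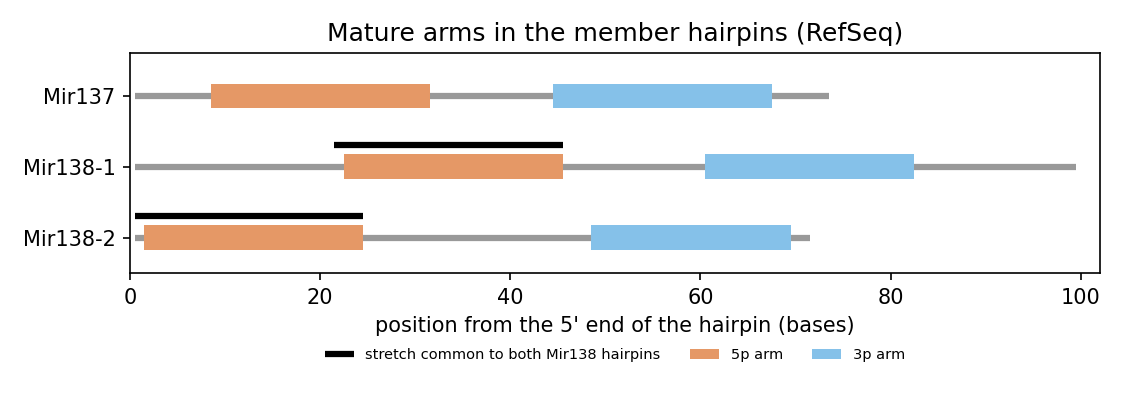
Positions of the 5p and 3p arms along the hairpins of Mir137 (73 bases), Mir138-1 (99 bases) and Mir138-2 (71 bases), counted in bases from the 5′ end. The black line marks the 24 bases common to both Mir138 hairpins, which cover the whole 5p arm and leave the 3p arm outside.

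Mir137 (ENSMUSG00000065569) lies at chr3:118433857-118433929 on the plus strand, in an exon of the noncoding transcript gene Gm26871 (GENCODE M21, mm10). Mir138-1 (ENSMUSG00000065414) lies at chr9:122682876-122682974 on the plus strand, in an exon of the transcribed pseudogene Gm47135. Mir138-2 (ENSMUSG00000065512) lies at chr8:94324311-94324381 on the plus strand, in an exon of the long noncoding RNA gene C78859. The copies are thus on different chromosomes and belong to separate transcripts. All 3 hairpins lie wholly in an exon of a noncoding gene of the same strand. Of the 474 miRNA genes of 1 CPM or more on average, 88 lay wholly in a same-strand exon (18.6%). That count took exons of coding and noncoding genes, but not of miRNA genes. CPM is the count per 1000000 sense counts of all miRNA genes. Nearest to Mir138-2 are the protein-coding genes Nup93, which ends 7084 bases before it, and Slc12a3, which starts 4820 bases after it. The file's identifiers for Mir137 and Mir138-2 carry an older version than M21, so their ends may have differed when reads were counted.

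The tables list 7557669 reads for replicate 1 and 13115314 for replicate 2. Of these, 3429704 and 5752476 lay on the sense strand of a miRNA gene. Reads with several mapping places were 0.830 and 0.816 times as many as the sense reads in replicates 1 and 2. All intervals below are exact Clopper-Pearson intervals at 95% and cover counting error only, since the reads are not known to be independent molecules.

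Mir137 was one of the most counted miRNA genes of the embryonic midbrain. It had 37041 counts in replicate 1 and 66640 in replicate 2, or 10800 CPM (interval 10691 to 10910) and 11585 CPM (11497 to 11672). The mean was 11192 ± 555 CPM (SD, n = 2), 1.12 ± 0.0555% of all sense counts, and the rank 17 of 1973 genes. That rank is among genes, not mature miRNAs. If reads with several mapping places were set aside, genes that share an arm with a copy may rank too low. Replicate 2 was the higher library, and the counting intervals of the libraries did not overlap.

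Mir138-1, the copy on chromosome 9, had 3806 and 6128 counts in replicates 1 and 2. These were 1110 CPM (interval 1075 to 1146) and 1065 CPM (1039 to 1092), with a mean of 1087 ± 31.4 CPM (SD, n = 2) and a rank of 88. Here replicate 1 was the higher library, and the intervals overlapped. Mir138-2, the copy on chromosome 8, had 1985 and 3494 counts, or 579 CPM (554 to 605) and 607 CPM (587 to 628). Its mean was 593 ± 20.2 CPM (SD, n = 2) and its rank 116, with overlapping intervals. Both copies together had 1688 and 1673 CPM, a mean of 1681 ± 11.2 CPM or 0.168% of sense counts.

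The order Mir137, Mir138-1, Mir138-2 held in both libraries, with gaps far larger than the replicate SDs. Mir137 exceeded Mir138-1 in counts by 9.73 and 10.9 times in replicates 1 and 2 (10.3 ± 0.808). It exceeded Mir138-2 by 18.7 and 19.1 times (18.9 ± 0.292) and both copies together by 6.40 and 6.93 times (6.66 ± 0.374). If reads with several mapping places were set aside, reads that match both Mir138 copies are missing from the lower side of these folds. Per base of hairpin the fold of Mir137 was 14.0 over Mir138-1 and 18.4 over Mir138-2.

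**Figure D2:**
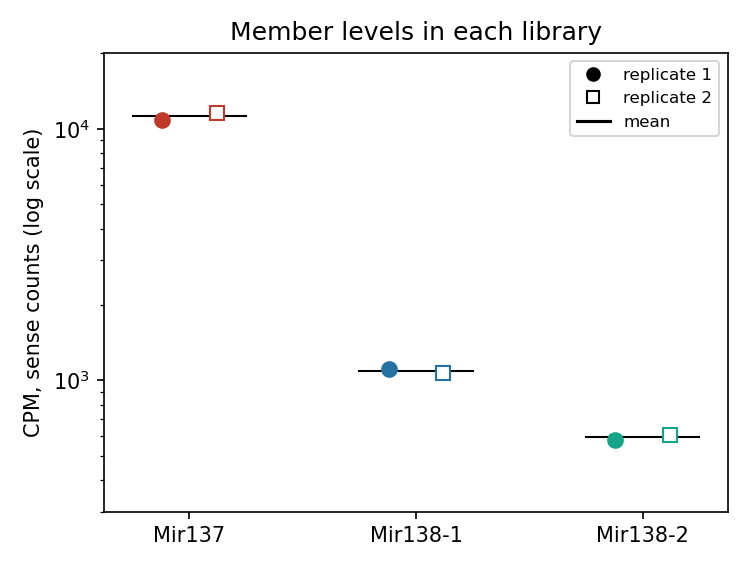
CPM of sense counts on a log axis for Mir137, Mir138-1 and Mir138-2, with a filled circle for replicate 1, an open square for replicate 2 and a line for their mean. Error bars are 95% counting intervals and are smaller than the symbols. The genes stand near 11192, 1087 and 593 CPM, and the libraries of a gene stand close together.

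Mir138-1 gave about 65% of the reads counted in a Mir138 copy. In replicate 1 the share was 65.7%, with an interval of 64.5 to 66.9, and in replicate 2 it was 63.7%, with one of 62.7 to 64.6. This is a mean of 64.7 ± 1.44% (SD, n = 2). As a fold this was 1.92 and 1.75, or 1.84 ± 0.116, and 1.31 per base of hairpin. The shares differed between the libraries by a little more than counting error (two-sided Fisher's exact test, adjusted p = 0.0160 over the 3 pairs of members). The split between Mir137 and Mir138-1 differed too (adjusted p = 9.59e-07), and that between Mir137 and Mir138-2 missed the threshold (adjusted p = 0.452). These tests compare a pair of libraries and allow for no variation between pools.

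Other miRNA genes with copies give a scale for that split. By their RefSeq arms, 20 pairs of genes shared 1 mature arm, differed in the other and shared no arm with any further gene. In 7 of them both copies had a mean of at least 100 CPM, and Mir138 was number 4 of the 7 by the fold between copies. On either side of it stood Mir7-1 over Mir7-2, at 2.03 and 1.85 times in replicates 1 and 2, and Mir128-1 over Mir128-2, at 1.88 and 1.63 times. The Mir125b copies were nearly even, at 0.984 and 1.05 times for Mir125b-2 over Mir125b-1. Mir181a-1 exceeded Mir181a-2 by 5.54 and 12.2 times. These pairs were named after their values were seen, and the limit given for Mir138 applies to them in the same way.

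**Figure D3:**
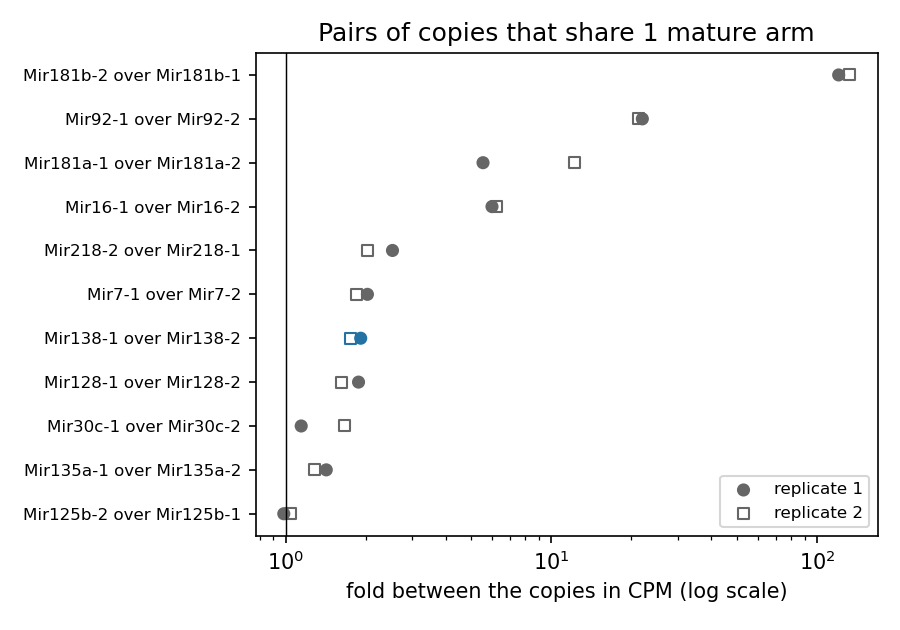
Fold in CPM between the copies of the 11 gene pairs that share 1 mature arm and in which both copies have a mean of at least 10 CPM, on a log axis, with a filled circle for replicate 1 and an open square for replicate 2. The pair of Mir138 genes (blue) stands at 1.92 and 1.75, next to Mir7-1 over Mir7-2 and Mir128-1 over Mir128-2.

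The pools differed little in these genes. On the log2 scale with TMM scaling and a pseudocount of 1 CPM, the ratio of replicate 1 over replicate 2 was -0.068 for Mir137 (counting interval -0.086 to -0.049), a fold of 0.954. It was 0.092 for Mir138-1 (0.034 to 0.15), a fold of 1.07, and -0.036 for Mir138-2 (-0.12 to 0.044), a fold of 0.975. In the two-sided exact binomial test with Benjamini-Hochberg adjustment over 717 genes with a count, Mir137 passed (adjusted p = 5.20e-12), as did Mir138-1 (0.0126), while Mir138-2 did not (0.694). With library totals in place of TMM, Mir138-1 did not pass either (adjusted p = 0.189). The test called 19.8% of all genes with a count and, when run on the 203 genes that averaged 100 CPM or more, 62.1% of those, so 2 of 3 members called is near the background of genes this abundant. With a coefficient of variation of 10% between pools, assumed and not estimated from these libraries, edgeR's exact test called 0.418% of genes and none of the 3 members (adjusted p = 1). The assumed value is larger than the members' own replicate SDs, given next, so this says little about them. At an unadjusted p under 0.05 that test reached no member either, their p being 0.741, 0.655 and 0.864 for Mir137, Mir138-1 and Mir138-2.

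The replicate SD was 4.96% of the mean for Mir137, 2.89% for Mir138-1 and 3.41% for Mir138-2. Over the 203 genes that averaged 100 CPM or more the median was 5.88%. With 2 libraries a single SD is itself imprecise.

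**Figure D4:**
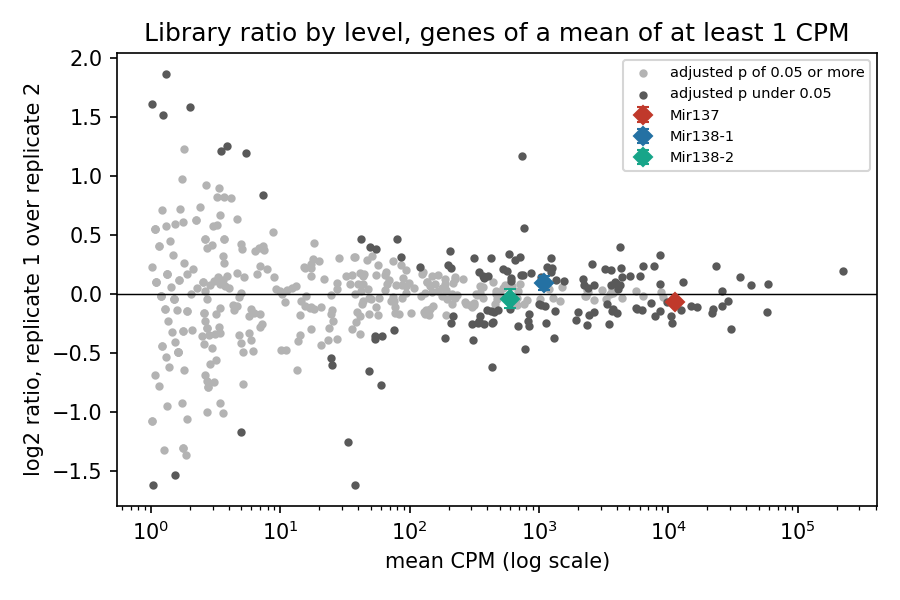
Log2 ratio of replicate 1 over replicate 2 against mean CPM (log axis) for the 474 genes that averaged 1 CPM or more, dark where the exact binomial test passed at an adjusted p under 0.05. The members (diamonds, with 95% counting intervals) lie close to 0, at -0.068 for Mir137, 0.092 for Mir138-1 and -0.036 for Mir138-2.

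Reads on the opposite strand were not seen at any member. Each had 0 in both libraries, which allows up to 0.0081% of the reads at Mir137 and up to 0.151% at Mir138-2 in replicate 1, the shallower library. Over all genes such reads were 2.23% and 2.36% of gene reads. These include reads that by the annotation lie on the strand of Mir191, opposite to another gene, given under the other observations. Having none was common, as 175 of the 203 genes that averaged 100 CPM or more had none in either library (86.2%).

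In the order of levels, the neighbours of Mir137 were within the replicate spread. Mir93, of the Mir106b cluster, stood above it at 11821 and 13240 CPM in replicates 1 and 2, and Mir135b below it at 9617 and 11678 CPM. Mir369, at 13218 and 12589 CPM, was the nearest gene above whose SD did not meet that of Mir137. Around Mir138-1 stood Mir134, a dendritic miRNA from the imprinted cluster on chromosome 12, at 1115 ± 71.8 CPM, and Mir425 at 1036 ± 61.7 CPM, and around Mir138-2 stood Mir203 at 601 ± 47.2 CPM and Mir27b at 591 ± 88.6 CPM. None of these 4 differed from its Mir138 neighbour by more than the SDs.

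By distance of log2(CPM + 1) over the 2 libraries, the genes most like Mir137 were Mir135b (distance 0.168), Mir30a (0.169) and Mir93 (0.233). Those most like Mir138-1 were Mir188 (0.111), Mir219a-2 (0.142) and Mir134 (0.143), and those most like Mir138-2 were Mir3099 (0.0654), Mir203 (0.0689) and Mir350 (0.110). This likeness is mainly one of level, since 2 libraries of the same tissue hold little pattern.

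In a list of miRNA genes studied in neurons and at synapses, Mir137 had the highest mean. Mir138-1 and Mir138-2 stood at numbers 11 and 17. These places hold for the chosen list only, which was set with earlier results of these data known. It took the Mir26a and Mir181a genes but not Mir26b (mean 16651 CPM) or Mir181c (15010 CPM), both above Mir137. That list had 40 genes, the 3 members included, of which 38 could be matched. Mir9-1 and Mir191 had no row on their own strand and were left out. With the reads on the strand of Mir191 counted, given under the other observations, the Mir138 genes would stand lower. Of the 38, 37 had a mean of at least 1 CPM, against 474 of all 1973 genes, and 12 had at least 1000 CPM. The list's median was 455 CPM, and its summed level 5.27 ± 0.244% of sense counts (SD, n = 2). The 3 members held 24.5% and 24.4% of that sum in replicates 1 and 2. If reads with several mapping places were set aside, list genes that share an arm with a copy may stand too low. The order and these shares are thus of gene counts, not of mature miRNAs.

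By mean Mir137 stood first in the list, ahead of Mir135b (10648 ± 1458 CPM), a gap smaller than the spread between pools. In replicate 2 alone the order was the other way, with 11585 CPM for Mir137 and 11678 CPM for Mir135b. Mir181a-1 followed at 5631 ± 17.05 CPM, then Mir381 at 3554 ± 46.8 CPM and Mir153, a miRNA enriched in neurons, at 3360 ± 191 CPM. Mir7b had 2648 ± 107 CPM, Mir125b-2 2264 ± 50.3 CPM, Mir125b-1 2230 ± 47.2 CPM and Mir128-1 1447 ± 62.5 CPM. Mir138-1 was number 11 of 38. Close to it were Mir134 at number 10 and Mir188 at number 12, with 1033 ± 56.3 CPM, both described in rat neurons as regulators of dendritic spines. Mir132, an activity-induced miRNA, had 834 ± 80.6 CPM, and Mir138-2 was number 17.

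The list's other copied genes spread from levels near those of the Mir138 copies to a few CPM. Mir181a-2 had 1015 and 461 CPM in replicates 1 and 2. Mir128-2 had 831 ± 121 CPM, Mir7-1 671 ± 41.1 CPM, Mir9-3 484 ± 39.7 CPM, Mir135a-1 472 ± 17.2 CPM, Mir135a-2 349 ± 37.2 CPM and Mir7-2 347 ± 43.9 CPM. Lower stood Mir129-2 at 194 ± 6.73 CPM, Mir129-1 at 54.2 ± 10.3 CPM, Mir218-2 at 41.3 ± 3.06 CPM, Mir26a-2 at 23.3 ± 4.91 CPM, Mir218-1 at 18.2 ± 1.48 CPM and Mir26a-1 at 4.77 ± 0.143 CPM.

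At the low end of the list stood genes with copies or shared arms. Mir124a-3, a copy of the neuron-specific miR-124, had 2 counts in replicate 1 and 3 in replicate 2, no more than the 3 counts taken as the limit of detection. Its copies Mir124a-1 and Mir124a-2 had 33 and 28 counts over both libraries. Mir9-2 had 15, and Mir29b-1 and Mir29b-2 had 19 and 18. By the layout these rows, like those of the Mir138 copies, hold only reads that could be placed in 1 gene, and how many reads of each miRNA were left unplaced was not tested.

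Of the list, 14 of 38 genes differed between the libraries beyond counting error, 4 higher in replicate 1 and 10 in replicate 2 (36.8%, against 19.8% of all genes with a count). When the test was run on the 203 genes that averaged 100 CPM or more, it called 15 of the 25 list genes among them (60.0%), near the 62.1% of all 203. Its median log2 ratio was -0.037 among members with a mean of at least 1 CPM, and 0.0023 among all such genes.

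**Figure D5:**
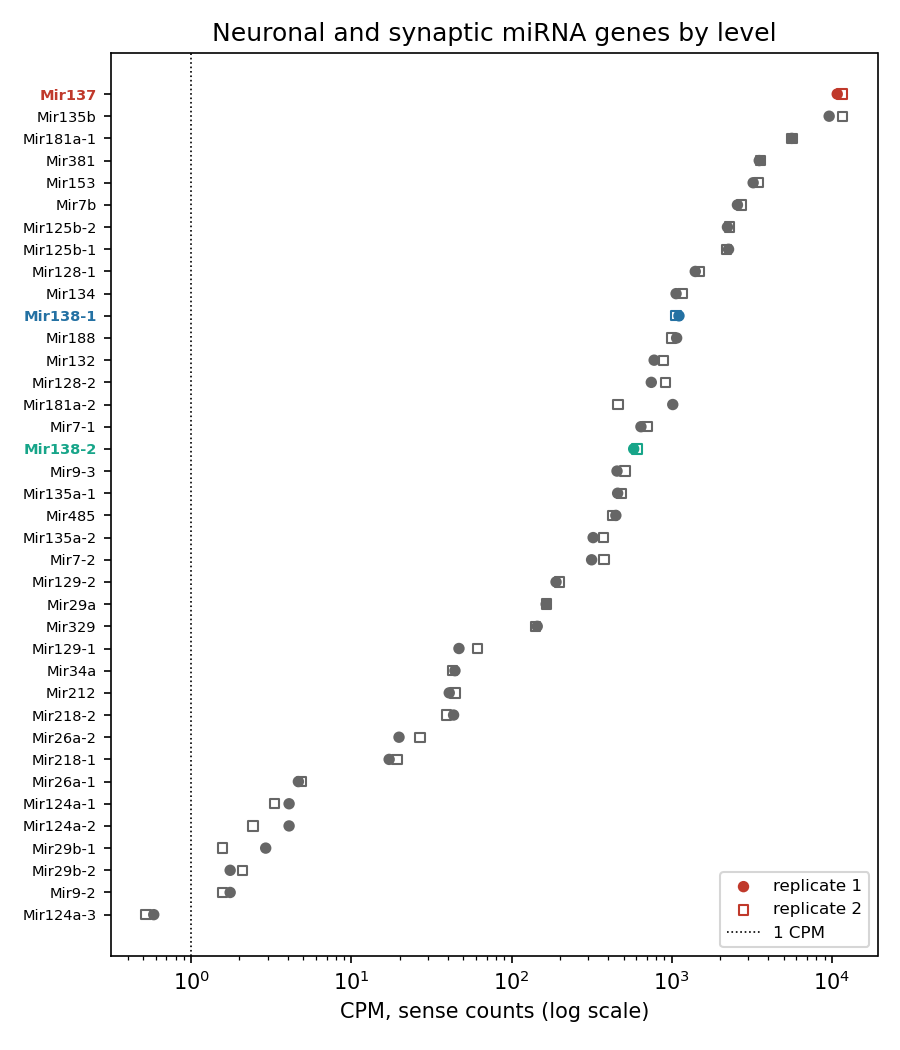
CPM of sense counts (log axis) for the 38 matched genes of the neuronal and synaptic list in replicate 1 (filled circles) and replicate 2 (open squares), from the highest to the lowest mean. Mir137 (red) has the highest mean and stands at the top, Mir138-1 (blue) at number 11 and Mir138-2 (green) at number 17, and Mir124a-3 alone stands left of 1 CPM.

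The tissue held other cell types too, and in bulk tissue fewer cells of a type and less RNA per cell cannot be told apart. Vessel miRNAs, 3 of 4 matched, summed to 31300 and 27436 CPM in replicates 1 and 2, led by Mir126a. Blood and microglia miRNAs, 5 of 6 matched, summed to 511 and 505 CPM, led by Mir223, and the 3 of the oligodendrocyte lineage to 1811 and 1688 CPM, led by Mir219a-2. Mir126b (vessel), Mir142 (blood and microglia) and Mir1a-2 (muscle, below) had no match, so the sums of their lists leave them out. Of markers of tissues outside the brain, those of epithelium summed to 657 and 803 CPM over 7 genes, led by Mir203, those of liver to 213 and 232 CPM over 4, led by Mir192, and those of muscle to 30.9 and 63.6 CPM over 6 of 7, led by Mir208b, with Mir1a-1, Mir133a-1 and Mir133a-2 at 0. Whether Mir1a-1, Mir133a-1 and Mir133a-2 share reads with a copy was not tested, so their 0 does not show that the miRNAs were absent. In the exact binomial test, 3 genes of epithelium, 1 of liver and 1 of muscle differed between the libraries, all higher in replicate 2. That test called 19.8% of all genes with a count. Among them, Mir205 of epithelium had 17.8 and 57.9 CPM in replicates 1 and 2. Mir208b had 19.0 and 47.6 CPM, and Mir122 of liver 43.2 and 76.1 CPM. Mir205 and Mir208b also passed edgeR's exact test at the assumed variation of 10%. The part of the other cell types in the small differences of the members was not tested.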

How the data were processed

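The authors deposited whole read counts per miRNA gene for each library in 3 columns (without regard to strand, sense and opposite strand), with no normalization. Per the deposited readme text they rest on mm10 and GENCODE M4. Which aligner and counter were used is not given in the sources used here. STAR writes gene counts with the same row names and columns. Rows that name no gene stayed out of library sizes. In replicates 1 and 2, 13.4% and 16.9% of reads were unmapped, and 37.7% and 35.8% had several mapping places. A further 3.57% and 3.43% lay on the sense strand of no gene, and 0% were ambiguous. Those are values of the sense column, so by the layout the 3.57% and 3.43% include reads on the opposite strand of a gene.

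GENCODE M21 gave symbols and coordinates and matched 1894 of 1973 identifiers, and sequences from RefSeq on GRCm38.p6. CPM were computed from sense counts, with mean and SD over 2 libraries. With 1 group, edgeR's quasi-likelihood test had no contrast. Library ratios used TMM (edgeR 4.0.16) and an exact binomial test. That test was tried on simulated counts without variation between pools, so the trial says nothing about such variation. Pairs of members used Fisher's exact test (scipy 1.17.1). Alternatives used DESeq2 1.42.0 size factors and other settings.

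The members, lists and tests were chosen with earlier results of these data known. Named genes were the members, the 3 nearest to each, neighbours in level, the list's members of at least 1000 CPM and its lowest and copied genes, and the highest marker of each list. Genes of the copy pairs and around the members' positions, Mir132, Mir26b, Mir181c, Mir205, Mir122 and the unmatched list genes fall outside that rule.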

Additional observations from a re-analysis of the deposited data

How the results depend on the processing

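Levels in CPM depend on the denominator. The order of the members did not change under any setting tried. Only scaling per base of hairpin and leaving out a replicate could have changed it, since the other settings act alike on all members. Per 1000000 reads of any kind in the tables, Mir137, Mir138-1 and Mir138-2 had 4991, 485 and 265. Per 1000000 sense reads plus reads with several mapping places they had 6140, 596 and 325, without Mir99a 14408, 1401 and 764, and per base of hairpin, scaled to the same total, 11893, 852 and 648. Mir138-1 ranked 93 with counts on either strand and 95 per base of hairpin, and Mir138-2 ranked 122 and 104. Leaving out a replicate gave Mir138-2 ranks from 112 to 117. Mir138-1 no longer differed between the libraries with library totals as the scale (log2 ratio 0.059, adjusted p = 0.189). With edgeR's exact test and an assumed coefficient of variation of 10%, Mir137 (-0.068) and Mir138-1 (0.092) did not pass, and 3 genes did in place of 142. The edgeR test of single members and the filters on their ratios were chosen after seeing the data. The other 67 of 88 values were taken as unchanged. Ratios kept their side of the threshold, and levels, shares and ranks moved by no more than the replicate spread or 1 rank. Counts of genes stayed within a set fold of the main value. Some of these values could not have come out otherwise. With 2 libraries, leaving out 1 always moves a level or a share by less than the SD. The pseudocount, also varied, does not enter the exact binomial test. The members had no reads on the opposite strand, so the share of Mir138-1 was the same with either strand. The leave-one-out settings give no library ratio. A read was worth 0.292 CPM in replicate 1 and 0.174 in replicate 2, which is small beside the members' levels. No paired analysis was possible because there is 1 group.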

Other observations

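The hairpins were also folded with RNAfold 2.7.2. The predicted minimum free energy was -31.2 kcal/mol for Mir137, -45.5 for Mir138-1 and -29.3 for Mir138-2. Per base this came to -0.427, -0.460 and -0.413, close to the median of -0.406 over the 1005 mouse hairpins of the RefSeq table.

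Of the genes on the neuronal and synaptic list that had no row on their own strand, Mir191 lies opposite to the annotated miRNA gene Gm24083. The row of Gm24083 held 0 sense counts, and 10786 and 18437 counts on the opposite strand in replicates 1 and 2. Mir9-1 lies opposite to Gm25641, whose row held 74 and 175 counts on the opposite strand. These reads are not part of the CPM given above, and they are counts on the strand of Mir191 and Mir9-1 by the annotation. The counts opposite to Gm24083 exceed those of Mir138-1 (3806 and 6128) in replicates 1 and 2. With Mir191 counted, both Mir138 genes would thus stand lower in the list.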
